A study of Homo sapiens with 4 samples.

Results

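The EGFR family is described here through 10 genes taken by symbol from the 61806 genes of the expression table, namely the receptors EGFR, ERBB2 and ERBB3, the EGFR ligands AREG, EREG, HBEGF, TGFA and BTC, the neuregulin NRG1, and ERRFI1, an inhibitor of the receptors. They were measured in 2 human bone tumour lines, JJ012 (chondrosarcoma) and 143B (osteosarcoma). Each line gave 1 control library, labelled untreated, and 1 library from cells given 1 mM melatonin for 72 h, and all 4 cultures were kept detached from a surface. Poly(A) RNA was sequenced in paired ends, with totals between 15889564 and 19218343 counts per library and between 13198 and 14477 genes at 1 FPKM or more (counts scaled to exonic length and library total). With 1 library per condition there was no replicate, no test within a line was possible, and differences could not be set against the variation between cultures of 1 line. The control received no stated vehicle, each line stands for 1 tumour, and no adherent culture was analysed here.

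The receptors of this family are tyrosine kinases of the cell surface that pair with each other when a ligand binds and then switch on the RAS-ERK and PI3K-AKT pathways. Their ligands are made as precursors anchored in the membrane and are released by proteases of the ADAM family, so that the amount of messenger RNA does not give the amount of free ligand. In bone and cartilage EGFR is known for its part in the growth plate and in bone-forming precursors, and mice without ERRFI1, which is transcribed in answer to EGFR and shuts the kinase off, develop joint disease.

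The markers of the labelled tumour types were largely low. The cartilage collagen gene COL2A1 had 0 counts in both JJ012 libraries and ACAN, the gene of the cartilage proteoglycan aggrecan, had 4 and 3, while SOX9, a transcription factor of chondrocytes, stood at 15.06 FPKM in the control and 6.16 FPKM after melatonin. In 143B the bone collagen genes COL1A1 and COL1A2 had at most 70 and 1 counts, and SP7, a transcription factor of osteoblasts, had at most 1. The 8 cartilage markers summed to 17.76 and 7.13 FPKM in JJ012, and the 8 osteoblast markers to 6.97 and 5.08 FPKM in 143B, against 107.22 and 68.34 FPKM in JJ012. At 1 FPKM or more were 2 and 1 of the cartilage markers in JJ012, and 2 of the osteoblast markers in each 143B library. In JJ012 4 and 2 of the osteoblast markers were at this level. Most listed markers of the labelled tissues were thus under 1 FPKM, and the lines are called by their names. Of markers of other cells, the T cell gene CD3E had 497 and 141 counts in JJ012 and 0 in 143B, and the 4 leukocyte markers summed to 10.88 and 4.18 FPKM in JJ012. The 5 epithelial markers summed to 0.05 to 1.40 FPKM over the 4 libraries, and the 3 endothelial markers to 0.93 to 2.40 FPKM. Their part in the results was not tested.

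Positions are those of the table, on hg38, the build of the submitters' processing notes. EGFR (ENSG00000146648) is on chromosome 7 at 55019017 to 55211628, ERBB2 (ENSG00000141736) on chromosome 17 at 39687914 to 39730426, ERBB3 (ENSG00000065361) on chromosome 12 at 56076799 to 56103505, HBEGF (ENSG00000113070) on chromosome 5 at 140332843 to 140346603, TGFA (ENSG00000163235) on chromosome 2 at 70447284 to 70554193 and ERRFI1 (ENSG00000116285) on chromosome 1 at 8004404 to 8026309. NRG1 has the identifier ENSG00000157168. EREG (ENSG00000124882), AREG (ENSG00000109321) and BTC (ENSG00000174808) sit with EPGN, another EGFR ligand, in a cluster on chromosome 4 that spans 486054 bases, with 56387 bases between EREG and AREG. The span of ERBB2 overlaps that of MIEN1 on the opposite strand, which had 211 to 607 counts, and the span of EGFR that of EGFR-AS1, which had 1 to 17 counts. The strand setting of the counting is not given in the sources used here.

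Promoter sequence is shown for the members whose messages are compared most closely: EGFR and HBEGF, which were both higher after melatonin in both lines, ERRFI1, which was the most abundant member, and AREG, which was higher in JJ012. Each is the 250 bases before the RefSeq transcription start that matches the start of the gene in the table, on GRCh38.p14, written 5′ to 3′ on the strand of the gene, and capitals mark the letters of motifs found on either strand. EGFR lies at chr7:55018767-55019016 (plus strand), HBEGF at chr5:140346604-140346853 (minus strand), ERRFI1 at chr1:8026310-8026559 (minus strand) and AREG at chr4:74444886-74445135 (plus strand).
EGFR: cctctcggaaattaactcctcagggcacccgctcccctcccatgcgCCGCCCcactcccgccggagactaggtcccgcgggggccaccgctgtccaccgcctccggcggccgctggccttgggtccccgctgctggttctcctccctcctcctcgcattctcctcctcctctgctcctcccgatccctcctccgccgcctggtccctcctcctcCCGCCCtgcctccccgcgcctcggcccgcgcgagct
HBEGF: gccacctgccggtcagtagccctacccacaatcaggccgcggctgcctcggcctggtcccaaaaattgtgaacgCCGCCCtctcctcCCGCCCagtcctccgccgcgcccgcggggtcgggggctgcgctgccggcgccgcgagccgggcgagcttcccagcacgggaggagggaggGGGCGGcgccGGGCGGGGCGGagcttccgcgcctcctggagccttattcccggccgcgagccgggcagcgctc
ERRFI1: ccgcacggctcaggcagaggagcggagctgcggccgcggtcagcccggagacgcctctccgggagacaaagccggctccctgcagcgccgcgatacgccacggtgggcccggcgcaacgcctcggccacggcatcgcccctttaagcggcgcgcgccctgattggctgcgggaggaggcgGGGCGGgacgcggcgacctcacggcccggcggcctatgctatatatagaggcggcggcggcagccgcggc
AREG: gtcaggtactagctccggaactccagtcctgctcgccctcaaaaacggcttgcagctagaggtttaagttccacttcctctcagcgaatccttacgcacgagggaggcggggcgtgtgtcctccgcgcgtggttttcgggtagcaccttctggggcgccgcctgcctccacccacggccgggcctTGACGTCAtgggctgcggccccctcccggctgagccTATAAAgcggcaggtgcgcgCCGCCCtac

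The motifs searched were the GC box (GGGCGG), the AP-1 element (TGACTCA), the cyclic AMP response element (TGACGTCA) and the TATA box (TATAAA), each on both strands. Of 35116 promoter windows of this length in the reference, 42.6% held a GC box, 4.20% an AP-1 element, 1.65% a cyclic AMP response element and 10.7% a TATA box. The EGFR window had 2 GC boxes, the HBEGF window 5 (of which a pair shared 1 base) and the ERRFI1 window 1, and none of these windows held another of the 4 motifs in exactly these letters. Their G and C content was 73.6%, 76.4% and 75.2%, against a median of 58% over all windows. The AREG window, with 65.2%, was the only one of the printed windows with the letters TATAAA, 29 to 24 bases before the start. It was also the only one with a cyclic AMP response element, 65 to 58 bases before the start. The ERRFI1 window held the letters tatatata, a TATA-like stretch that this search did not take in. RefSeq holds another start of EGFR, 90822 bases downstream, whose window was not printed and differed, with 38.8% G and C, 0 GC boxes, 2 AP-1 elements and 2 TATA boxes. Which start was used in these cells was not tested. A match of letters is a description of the sequence and does not show binding.

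The members spanned a wide range of levels, with ERRFI1 above every other member in every library. ERRFI1 stood at 126.18 FPKM in the JJ012 control, 125.13 FPKM in melatonin-treated JJ012, 700.61 FPKM in the 143B control and 754.24 FPKM in melatonin-treated 143B. It was the gene of rank 16 by FPKM in both 143B libraries, and of rank 221 and 155 in JJ012. The FPKM of this inhibitor were 37.9 and 33.6 times those of EGFR in the 143B control and melatonin libraries, and 25.4 and 16.5 times in JJ012. EREG and BTC were at the other end of the range, with at most 6 and 4 counts in any library. EREG had 0 counts in 3 libraries and BTC in both 143B libraries, and a count of 0 allows up to 0.189 CPM (counts scaled to the library total alone) at these depths.

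**Figure D1:**
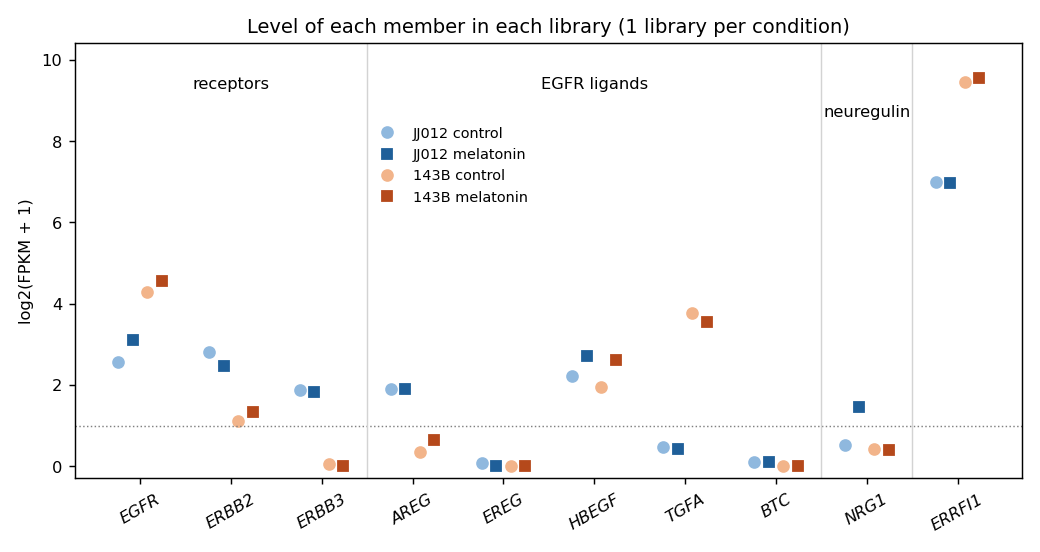
Level of each of the 10 members in each of the 4 libraries, as log2(FPKM + 1), grouped by role; circles are control and squares melatonin, blue is JJ012 and orange 143B, and the dotted line is 1 FPKM. ERRFI1 lies above all other members in every library, TGFA is over 1 FPKM only in 143B, and ERBB3 and AREG only in JJ012.

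The receptors differed in kind between the lines. EGFR stood at 4.96 FPKM (1519 counts) in the JJ012 control, 7.57 FPKM (1947 counts) in melatonin-treated JJ012, 18.49 FPKM (4683 counts) in the 143B control and 22.47 FPKM (6147 counts) in melatonin-treated 143B. ERBB2, the receptor with no known ligand that serves as partner to the others, stood at 5.98, 4.51, 1.16 and 1.54 FPKM in the same order. ERBB3, which binds neuregulins and has a weak kinase of its own, stood at 2.68 FPKM (604 counts) and 2.56 FPKM (484 counts) in JJ012 and had 7 and 3 counts in 143B. JJ012 thus held each of EGFR, ERBB2 and ERBB3 at 2.56 FPKM or more, while the receptor FPKM of 143B were mostly EGFR. ERBB4, the remaining receptor, had 39 and 24 counts in JJ012 and 0 and 3 in 143B.

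Set per length and summed over the 4 receptors, EGFR made up 36.0% of the receptor FPKM in control JJ012 and 51.3% with melatonin. In 143B it made up 93.9% and 93.5%. ERBB2 held 43.4% and 30.6% in JJ012, and 5.89% and 6.41% in 143B. The first place among the JJ012 receptors therefore passed from ERBB2 to EGFR between the control and the melatonin library, and without replicates this order cannot be set against a spread. FPKM of messages do not give the number of receptors on the cell surface.

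The ligands also differed in kind. TGFA, a ligand of EGFR alone, stood at 0.38 FPKM (36 counts) and 0.35 FPKM (28 counts) in JJ012, and at 12.66 FPKM (989 counts) and 10.69 FPKM (902 counts) in 143B. AREG, a ligand of low affinity for EGFR, went the other way, with 2.76 FPKM (87 counts) and 2.75 FPKM (73 counts) in JJ012, and 0.27 FPKM (7 counts) and 0.57 FPKM (16 counts) in 143B. HBEGF, a ligand of EGFR and ERBB4 that binds heparin, was the ligand member found over 1 FPKM in every library, at 3.64 FPKM (209 counts), 5.57 FPKM (269 counts), 2.84 FPKM (135 counts) and 5.09 FPKM (261 counts) in the order JJ012 control, JJ012 melatonin, 143B control and 143B melatonin. Both melatonin libraries thus had more HBEGF than either control. Among the genes outside the 10, EGF had 336 and 227 counts in JJ012 (2.29 and 1.84 FPKM) and 1 and 2 counts in 143B, and EPGN had at most 7 counts.

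Over the 7 ligands of EGFR, TGFA made up 80.2% of the summed FPKM in the 143B control and 65.3% after melatonin. In JJ012 its share was 4.12% and 3.27%. HBEGF held 39.5% in control JJ012 and 52.0% with melatonin, and 18.0% and 31.1% in 143B. The remainder in JJ012 was mostly AREG (29.9% and 25.7%) and EGF (24.8% and 17.2%), which together made up 1.77% and 3.60% in 143B.

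**Figure D2:**
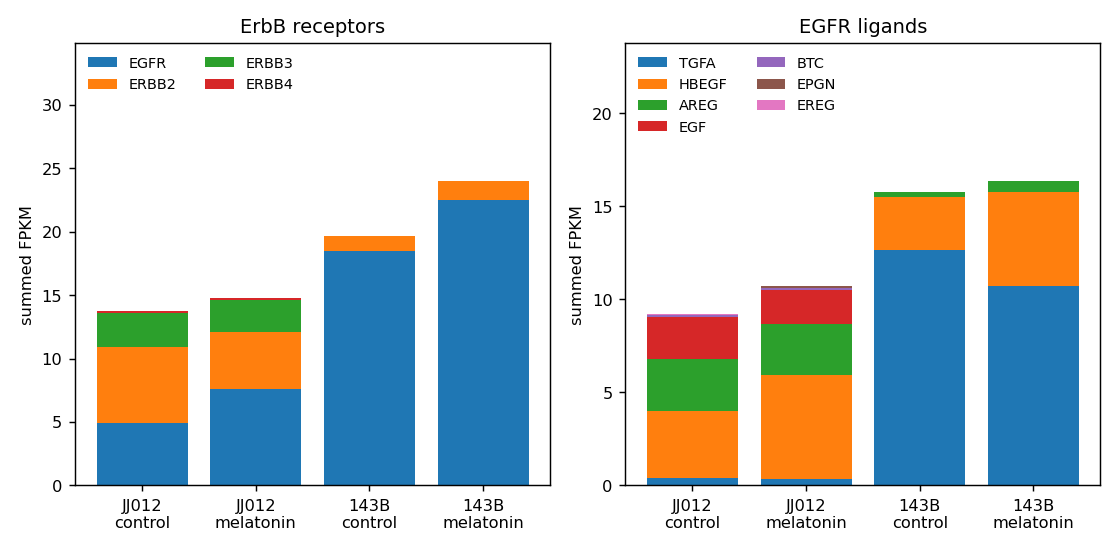
Stacked FPKM of the 4 ErbB receptors (left) and the 7 EGFR ligands (right) in each library, 1 library per bar. EGFR and TGFA fill most of the 143B bars, while the JJ012 bars are split among EGFR, ERBB2 and ERBB3 and among HBEGF, AREG and EGF.

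The neuregulins, which bind ERBB3, ERBB4 or both, were low except in a few libraries. NRG1 stood at 0.44 FPKM (180 counts) in the JJ012 control, 1.73 FPKM (598 counts) in melatonin-treated JJ012, 0.34 FPKM (116 counts) in the 143B control and 0.33 FPKM (120 counts) in melatonin-treated 143B. The melatonin-treated JJ012 library stood apart from the other three. In 143B the neuregulin with most FPKM was NRG2, at 3.08 and 4.10 FPKM against 0.21 and 0.19 FPKM in JJ012. NRG3 had at most 8 counts and NRG4 between 14 and 31.

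The first comparison asked what melatonin did to the messages of the family in JJ012. NRG1 rose, from 0.44 to 1.73 FPKM, and was the one member past the threshold, a log2 fold change of 0.58 in either direction on log2(FPKM + 1) among genes with at least 1 FPKM in 1 of the 2 libraries. Of the 10 members 7 passed this filter, 1 rose and 0 fell, where 38.2% of all 15794 genes that passed it were called in this comparison (19.6% higher and 18.6% lower). The share of members called was thus not above that of all genes. NRG1 itself passed the filter only through the library where it was high. In bulk RNA, fewer cells with a message and less of it per cell cannot be told apart.

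On the scale of the threshold NRG1 rose by 0.92, and its counts per library total were 3.95-fold higher (log2 1.98, 95% interval 1.74 to 2.23). These intervals are exact Clopper-Pearson intervals from the counts of 2 libraries and cover counting error only. In melatonin-treated JJ012 the fold changes of protein-coding genes went up with exonic length (Spearman's rho 0.40 across genes, which are not independent replicates), and NRG1, with 21398 exonic bases, is the longest member. Set against the median of the protein-coding genes nearest to it in length, which was 0.39, the log2 fold change of NRG1 was 0.53 and no longer past the threshold. This holds for log2(FPKM + 1), which shrinks the change of a gene at 0.44 and 1.73 FPKM. With 0.1 FPKM added in place of 1 the change was 1.76. The median of genes of like length was not taken off on that scale or on counts.

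EGFR and HBEGF stood just under the threshold in JJ012. EGFR counts per library total were 1.53-fold higher after melatonin (log2 0.61, interval 0.51 to 0.71), and its log2 fold change was 0.52. HBEGF was 1.53-fold higher as well (log2 0.62, interval 0.35 to 0.88), with a log2 fold change of 0.50. Both intervals lay above 0. Of the 7 members that passed the filter, 3 had an interval above 0 and 1 below it, and over all genes that passed 72.2% had an interval that left out 0. Less the median of genes of like length, EGFR (15941 exonic bases) came to 0.21 and HBEGF (2990 bases) to 0.70, which set apart a pair that had almost the same value. Both would pass the threshold with TPM (FPKM rescaled to a common sum), which moved the median of all genes from 0.01 to 0.27 and the share of higher genes among those called from 51.4% to 68.8%. Relative to these medians EGFR stood at 0.52 and 0.58 and HBEGF at 0.49 and 0.57.

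The other receptors did not pass the threshold in JJ012. ERBB2 was 1.33-fold lower per library total (log2 -0.41, interval -0.54 to -0.27), with a log2 fold change of -0.34, and with the median of genes of like length taken off it came to -0.64. The overlapping MIEN1 went from 607 to 412 counts, and PGAP3, which also overlaps ERBB2, from 143 to 94. ERBB3 had a log2 count ratio of -0.07 (interval -0.24 to 0.11), which takes in 0.

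ERRFI1 had a log2 count ratio of -0.01 in JJ012 (interval -0.05 to 0.03), from 10134 and 8442 counts. At this depth a change of this message by more than 1.04-fold in either direction would lie outside the counting interval, although the variation between cultures is not known. AREG had a log2 ratio of 0.00 with the wider interval of -0.47 to 0.46. TGFA, BTC and EREG were under 1 FPKM in both libraries and took no part in the count. The log2 ratio of TGFA was -0.11 (interval -0.88 to 0.64), and EREG went from 6 counts to 0.

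The same question in 143B gave 1 called member, HBEGF, which rose by 0.67 on log2(FPKM + 1), from 2.84 to 5.09 FPKM. Its counts per library total were 1.79-fold higher (log2 0.84, interval 0.53 to 1.15). Of the 10 members 5 passed the filter, 1 rose and 0 fell, against 12.7% of 14135 genes called in this comparison (6.09% higher and 6.65% lower). HBEGF stayed the called member under each other scaling, pseudocount and filter tried, with log2 values from 0.59 to 0.84, and dropped out only at a threshold of 1.

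The other 143B members that passed the filter differed by less than the threshold but by more than their counting error. EGFR was higher with a log2 count ratio of 0.28 (interval 0.23 to 0.34), and ERBB2 with 0.41 (interval 0.13 to 0.68). TGFA was 1.18-fold lower (log2 -0.24, interval -0.38 to -0.11). ERRFI1 was 1.08-fold higher (log2 0.11, interval 0.09 to 0.12), from 46522 and 54103 counts. Among all genes that passed the filter in 143B the interval left out 0 for 52.0%, so that such differences were common.

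AREG, ERBB3, NRG1, EREG and BTC stayed under 1 FPKM in both 143B libraries. AREG went from 7 to 16 counts (log2 1.08, interval -0.28 to 2.60) and ERBB3 from 7 to 3 (log2 -1.33, interval -3.92 to 0.80), and neither difference was detectable at this depth. NRG1 had a log2 ratio of -0.06 (interval -0.44 to 0.32).

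A change common to both lines was tested over the 4 libraries with the line as a block, as a fit added after seeing the data. This was edgeR's quasi-likelihood test with Benjamini-Hochberg adjustment, which has 1 residual degree of freedom. With 1 library per condition, the spread left after line and melatonin comes from how far the lines differ in their change. It is not a separate measure of the variation between cultures of 1 line. The error of the test came mostly from a dispersion, which is this spread estimated over all genes together (common value 0.09). The SE of a member therefore followed the gap between its own line changes little. It was 0.45 for NRG1 and 0.42 for EGFR, at gaps of 2.05 and 0.33 in the log2 count ratio. Of the 8 members tested 0 were called at an adjusted p under 0.05, and 1, NRG1, had an unadjusted p under 0.05. NRG1 had log2 count ratios of 1.98 in JJ012 and -0.06 in 143B, and entered the test only through the melatonin-treated JJ012 library. Its p therefore does not show a change common to both lines. Of all 18107 genes tested 82 (0.453%) were called, 12 higher and 70 lower, and 1034 had an unadjusted p under 0.05. NRG1 had a log2 fold change of 0.96 ± 0.45 (SE, adjusted p = 0.765), HBEGF of 0.70 ± 0.44 (adjusted p = 0.999) and EGFR of 0.42 ± 0.42 (adjusted p = 0.999). On simulated counts this fit called 6.82% of 88 genes with a true log2 change of 1, and 75.9% of 112 genes with 2. The largest estimate of a member was 0.96, so that 0 calls say little about the members. A p that misses the threshold does not show that a message was unchanged.

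**Figure D3:**
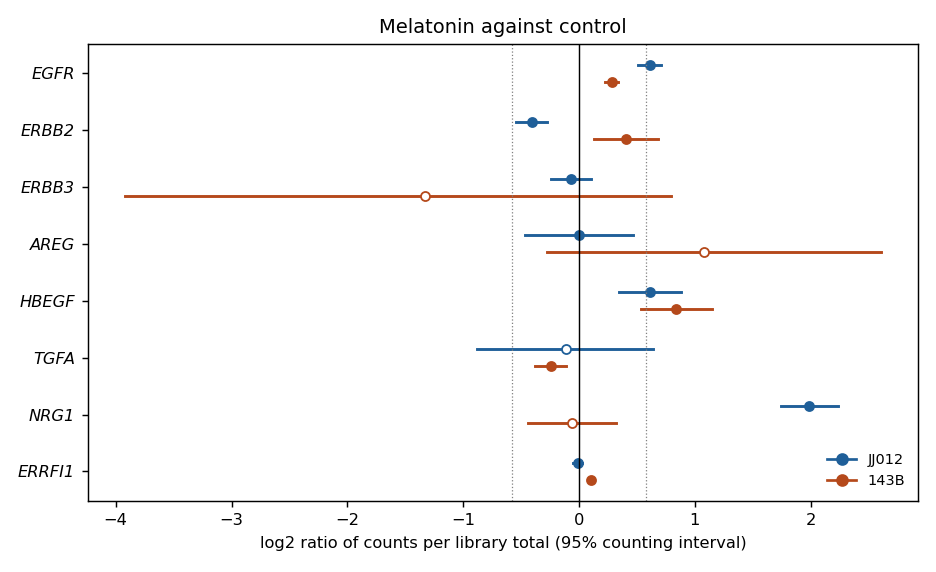
Log2 ratio of counts per library total, melatonin over control, for the members with counts in all libraries (y axis), JJ012 in blue and 143B in orange; bars are 95% counting intervals, filled points passed the filter of 1 FPKM, and the dotted lines mark 0.58 on this scale, whereas genes were called on log2(FPKM + 1). EGFR and HBEGF lie to the right of 0 in both lines, ERBB2 lies on opposite sides, and NRG1 is to the right in JJ012 at 1.98 and near 0 in 143B.

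The change after melatonin was also set against that of the other line. For EGFR the log2 count ratio in JJ012 less that in 143B was 0.33 (interval 0.22 to 0.44, counting error only), and for HBEGF it was -0.22 (interval -0.62 to 0.17), which takes in 0. For ERBB2, which was lower in JJ012 and higher in 143B, it was -0.81 (interval -1.11 to -0.52). NRG1 had the widest gap between the lines, 2.05 (interval 1.61 to 2.49), but was under 1 FPKM in both 143B libraries. On log2(FPKM + 1), 0 of the 4 members that passed the filter in both lines differed by 0.58 or more, with ERBB2 next to it at -0.57, where 39.7% of 11822 genes differed by as much.

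The comparison of the control libraries asked how the lines differ without melatonin, and here the family split. ERBB2, ERBB3 and AREG were higher in JJ012, and EGFR, TGFA and ERRFI1 were higher in 143B. Of the 10 members 7 passed the filter and 6 were called, against 68.7% of 16929 genes (41.3% higher and 27.4% lower in JJ012), so that calls are common between these lines. ERBB3, AREG and TGFA passed the filter only through the line where they are high and so had to differ, and the count supports nothing about the family. With a filter of 5 FPKM 4 members were called, ERBB2 higher and EGFR, TGFA and ERRFI1 lower, where 69.5% of all genes were called. The median of all genes was 0.29 toward JJ012 and -0.01 with TPM, and the share of higher genes among those called was 60.1% and 49.3%. The directions of the 6 called members were kept under each of these scalings.

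The size of these differences varied. TGFA was 33.2-fold lower in JJ012 (log2 -5.05, interval -5.58 to -4.58), and ERRFI1 was 5.55-fold lower (log2 -2.47, interval -2.50 to -2.44). EGFR was 3.73-fold lower (log2 -1.90, interval -1.98 to -1.81). The ligand, the receptor and the inhibitor were thus all more abundant in 143B. In the other direction ERBB2 was 5.17-fold higher in JJ012 (log2 2.37, interval 2.15 to 2.60) and AREG 10.3-fold higher (log2 3.36, interval 2.26 to 4.72). ERBB3 was 71.3-fold higher, but 7 counts in 143B left the interval of the fold at 34.4 to 178.

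HBEGF was not called between the controls. Its log2 count ratio was 0.36 (interval 0.04 to 0.68), and on log2(FPKM + 1) its value lay between -0.02 and 0.35 over the scalings and pseudocounts tried. NRG1, under 1 FPKM in both controls, had a log2 count ratio of 0.36 (interval 0.01 to 0.71). Outside the 10, EGF was called higher in JJ012 (336 counts against 1) and NRG2 lower, 14.3-fold by counts (interval 8.96 to 24.2).

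The melatonin libraries gave the same order of the lines, as a comparison chosen after seeing the data. TGFA was 30.3-fold, ERRFI1 6.03-fold and EGFR 2.97-fold lower in JJ012, while ERBB2 was 2.94-fold and AREG 4.85-fold higher. NRG1 joined the members higher in JJ012 there, 5.30-fold by counts (interval of the log2 ratio 2.12 to 2.70). HBEGF had a log2 count ratio of 0.13 (interval -0.12 to 0.38). In all, 7 of 8 members that passed the filter were called, against 62.0% of 16239 genes (38.8% higher and 23.2% lower in JJ012). Of these 7, ERBB3, AREG, TGFA and NRG1 passed the filter only through the line where they are high.

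**Figure D4:**
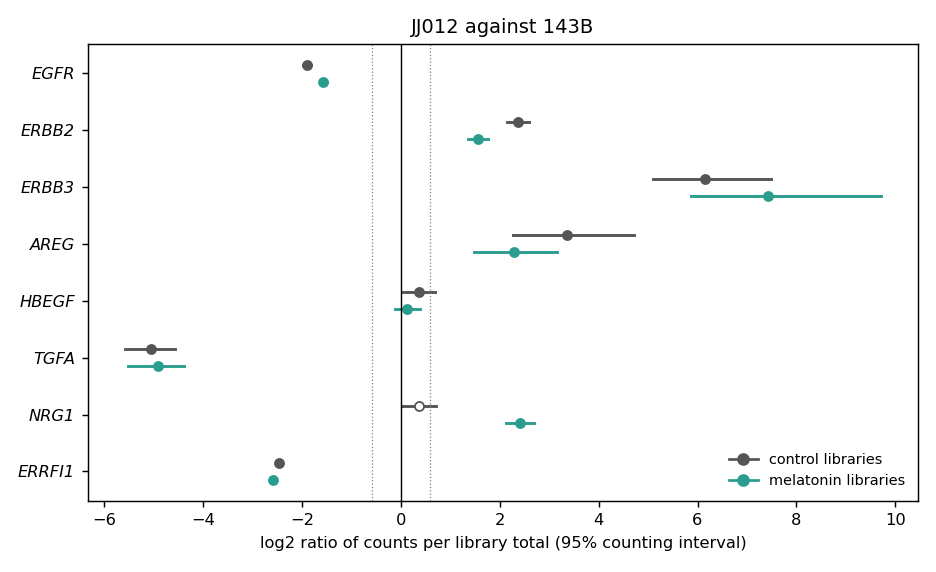
Log2 ratio of counts per library total, JJ012 over 143B, for the same members, from the control libraries (grey) and the melatonin libraries (green); bars are 95% counting intervals, the open point did not pass the filter, and the dotted lines mark 0.58. ERBB2, ERBB3 and AREG lie to the right, EGFR, TGFA and ERRFI1 to the left in both pairs, HBEGF lies near 0, and NRG1 is apart from 0 by more than 0.58 only in the melatonin pair.

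The genes whose levels over the 4 libraries followed that of EGFR most closely were MRE11, a DNA double-strand break nuclease, CCND1, the gene of cyclin D1, and DYNC1H1, a motor protein chain. Their log2(FPKM + 1), centred over the libraries, differed from that of EGFR by a root mean square of 0.04, 0.05 and 0.06. Of 5258 candidates with a KEGG name and 1 FPKM or more in every library, 53 came within 0.2, and 4 libraries cannot single out 1 gene among them.

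Around the receptors, more genes of the pathway passed the threshold in JJ012 than in 143B, as was so over all genes. The lists below hold none of the 10 members unless stated, and were written with earlier results of these data known. Of 129 genes with the KEGG name ErbB signaling pathway, which takes in 8 members, 75 passed the filter in JJ012, 15 rose and 3 fell, with a median log2 fold change of 0.34 against 0.01 over all genes. This is 24.0% of those that passed, below the 38.2% of all genes, although the median stood higher. With TPM the order of these shares turned, with 56.0% of the KEGG genes called (40 higher and 2 lower) against 50.3% of all genes. In 143B 72 passed, 1 rose and 1 fell (2.78% called, against 12.7% of all genes), with a median of 0.02 against 0.03 over all genes.

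Of 10 genes for the release of ligands, 9 passed the filter in JJ012, 1 rose and 2 fell (33.3% called, against 38.2% of all genes). ADAM17, the main protease that frees TGFA, AREG and HBEGF, rose from 6.17 to 10.73 FPKM (log2 fold change 0.71). The protease genes ADAM15 and RHBDL2 fell, from 21.68 to 11.05 FPKM and from 3.06 to 1.03 FPKM. In 143B 0 of 9 passed the threshold, where 12.7% of all genes did. With genes of like length taken off, the rise of ADAM17 came to 0.39 and was no longer past it.

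Of 27 adaptors and effectors, 26 passed the filter in JJ012, 7 rose and 2 fell (34.6% called, against 38.2% of all genes), with a median of 0.37. CBLB rose from 9.48 to 38.28 FPKM and CBL from 5.16 to 15.57 FPKM, both ubiquitin ligases that mark activated EGFR for breakdown, and GAB2, a docking protein, rose from 6.21 to 15.84 FPKM. The kinases MAPK3 (ERK1) and MAP2K2 (MEK2) fell, from 21.41 to 11.24 FPKM and from 18.66 to 9.89 FPKM. In 143B 0 of 26 passed the threshold, against 12.7% of all genes, with a median of -0.02. The JJ012 split changed with the processing. With TPM 16 were higher and 2 lower (69.2% called, against 50.3% of all genes). With genes of like length taken off 3 were higher and 4 lower (26.9% called), a setting in which all genes were not counted.

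Of 19 feedback inhibitors, 17 passed the filter in JJ012, 7 rose and 2 fell (52.9% called, against 38.2% of all genes), with a median of 0.55. The split moved with the processing, to 12 higher and 1 lower with TPM (76.5% called, against 50.3% of all genes). It was 6 and 0 with a filter of 5 FPKM (50% called, against 39.7% of all genes). With genes of like length taken off it was 8 and 2 (58.8% called), a setting in which all genes were not counted. DUSP5, a phosphatase of ERK in the nucleus, rose from 15.62 to 82.15 FPKM, DUSP4 from 1.09 to 4.76 FPKM and SPRY4, a Sprouty inhibitor of RAS-ERK signalling, from 1.49 to 5.04 FPKM. LRIG1, a membrane protein that lowers ErbB receptors, fell from 161 to 14 counts and LRIG3 from 3.77 to 2.01 FPKM. ERRFI1, which is not on this list, stood at 126.18 and 125.13 FPKM. In 143B 18 passed, 0 rose and 1 fell (5.56% called, against 12.7% of all genes). This was SOCS5, from 11.41 to 5.64 FPKM.

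Of 22 genes known to respond to ERK, 18 passed the filter in JJ012, 6 rose and 2 fell (44.4% called, against 38.2% of all genes), with a median of 0.23. With TPM 9 were higher and 2 lower (61.1% called, against 50.3% of all genes). With genes of like length taken off 6 were higher and 1 lower (38.9% called), a setting in which all genes were not counted. In 143B 22 passed, 4 rose and 1 fell (22.7% called, against 12.7% of all genes), with a median of 0.25. The risers in JJ012 were led by the transcription factor gene KLF6 (33.86 to 137.69 FPKM), the cytokine gene LIF (6.94 to 22.43 FPKM) and MYC (2.86 to 10.20 FPKM). In 143B the transcription factor genes EGR1 (23.13 to 62.36 FPKM) and KLF2 (2.52 to 6.73 FPKM) were among the risers. The chemokine gene CXCL8 fell in JJ012, from 93 to 32 counts, and KLF4 fell in 143B, from 14.52 to 6.86 FPKM.

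Between the control libraries, 17 of the 22 ERK-responsive genes and 11 of the 19 feedback inhibitors were lower in JJ012, and 4 and 3 were higher. In all 95.5% and 73.7% of those that passed the filter were called, where 68.7% of all genes were (27.4% lower and 41.3% higher). The medians were -1.45 and -0.92, against 0.29 over all genes.

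**Figure D5:**
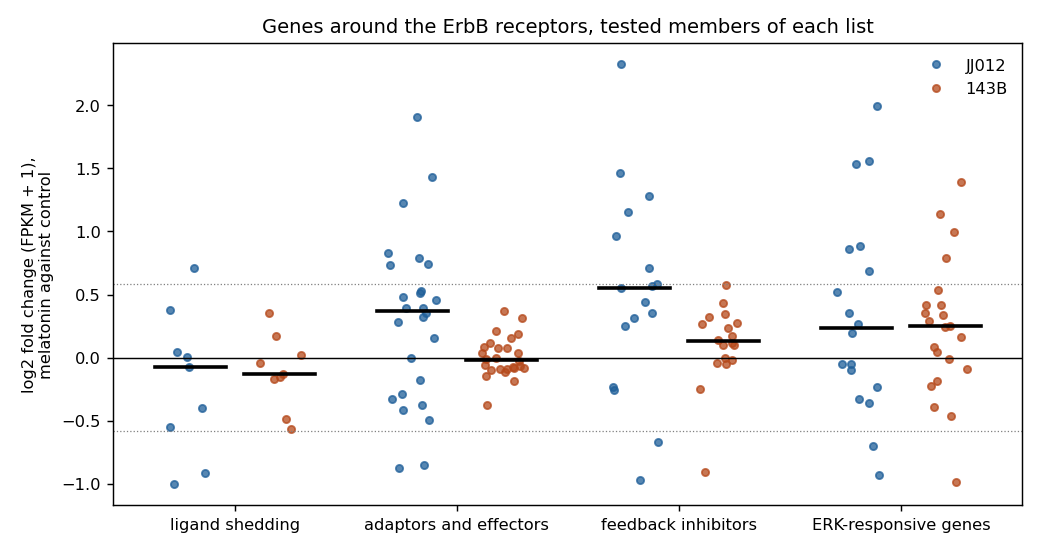
Log2 fold change of FPKM + 1 after melatonin for each gene that passed the filter in the 4 lists around the receptors, JJ012 in blue and 143B in orange; each point is a gene, black bars are medians, and the dotted lines mark 0.58 in either direction. The JJ012 points spread wider, with medians of 0.37 for adaptors and effectors and 0.55 for feedback inhibitors, against -0.02 and 0.13 in 143B.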

How the data were processed

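The authors deposited 1 table with whole-number counts per gene and library, not normalized, and FPKM, which are these counts scaled to exonic length and library total (recomputed here within 0.005). The submitters' processing notes name cutadapt 1.9.1, HISAT2 2.2.1, HTSeq 0.6.1, DESeq2 and hg38. A column name ending in T was taken as melatonin. The 10 members, the lists and the tests were chosen with earlier results of these data known.

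Log2 fold changes of FPKM + 1 were called at 0.58, among genes that reached 1 FPKM in 1 of the 2 libraries compared. Single genes also had the ratio of counts per library total with an exact 95% interval, which covers counting error only. A count of 3 or fewer was at the floor. No count model could be fitted within a line. Over both lines, edgeR's quasi-likelihood test was fitted to the counts of genes at 1 FPKM or more in a library, with TMM factors and the line as a block. The scripts were tested on simulated data. Named genes were the members, the other ErbB receptors and ligands, at most 3 risers and 3 fallers of each list with at least 50 counts in a library, and the 3 genes most like EGFR. A gene of this rule is not reported here. Genes of like length were the 501 protein-coding genes (GENCODE 29) nearest in exonic length. Promoters came from RefSeq, which held an entry for 8 members apart from NRG1. Python 3.11.15, edgeR 4.0.16 and DESeq2 1.42.0 (size factors) were used.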

Additional observations from a re-analysis of the deposited data

Results flagged for a closer look

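ERBB2 moved in opposite directions in the lines after melatonin, with log2 ratios of counts per library total of -0.41 in JJ012 and 0.41 in 143B, each with a counting interval clear of 0. The same held for 4 genes named from the lists. ADAM17 had 0.80 in JJ012 and -0.18 in 143B, CBL 1.59 and -0.10, and SOCS5 0.29 and -1.02. KLF2 had -0.36 in JJ012 and 1.42 in 143B. Such intervals were common, as they left out 0 for 72.2% of all genes that passed the filter in JJ012 and 52.0% in 143B. How many of all genes moved in opposite directions was not counted, so these genes are not shown to stand out. ERBB2 was called in neither line before genes of like length were taken off, and ADAM17 and CBL were not called in 143B. With 1 library per condition the difference between the lines was not tested against the variation between cultures.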

How the results depend on the processing

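In JJ012 the 1 called member, NRG1, became 3 (EGFR, HBEGF and NRG1) with a pseudocount of 0.1 FPKM, with TPM and with count ratios without a pseudocount, 2 (EGFR and NRG1) with CPM and with TMM factors, 2 (ERBB2 lower, HBEGF higher) with genes of like length taken off, and 0 with a filter of 5 FPKM or a threshold of 1. Over all genes in JJ012 the share called was 48.6% with that pseudocount, 50.3% with TPM and 49.7% with count ratios. It was 39.5% with CPM, 37.4% with TMM factors, 39.7% with a filter of 5 FPKM and 14.7% at a threshold of 1. No such share was computed with genes of like length taken off. In 143B the 1 member, HBEGF, became 0 at a threshold of 1, where 4.45% of all genes were called. The members that differed between the lines in their change went from 0 to 1 with a pseudocount of 0.1 (ERBB2) and to 1 with TPM (EGFR). The 18 called KEGG ErbB genes in JJ012 became 42 with TPM and 7 at a threshold of 1 (56.0% and 9.33%, against 50.3% and 14.7% of all genes). The 2 in 143B became 5 with a pseudocount of 0.1 or CPM (6.94%), 7 with count ratios (9.72%) and 0 at a threshold of 1. In these settings 20.9%, 11.4%, 22.1% and 4.45% of all genes were called, in the same order. The 54 between the controls became 34 at a threshold of 1 (67.5% and 42.5%, against 68.7% and 47.2% of all genes). No direction of a called member was reversed. Within a line, pairs could not be formed from 1 library per group. With the line as a block over the 4 libraries, edgeR called 0 members, in a fit that recovered 6.82% of simulated log2 changes of 1. A filter of 5 FPKM left 4 called members between the controls, without ERBB3 and AREG. The fit with the block, the count ratios, the length-matched values and the melatonin libraries of the lines were chosen after seeing the data. EREG, BTC and, in 143B, ERBB3 and AREG had too few counts for a difference to be detectable.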
